A study of Mus musculus with 6 samples.

Results

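The genes described here present peptides to T cells. They comprise 10 members of the major histocompatibility complex (MHC) pathways, chosen by gene name with H2-Ab1 in the lead because it differed between the genotypes in these same arrays. The class II members were H2-Ab1, H2-Aa, H2-Eb1, Cd74 and Ciita, and the class I members were H2-D1, H2-K1, B2m, Tap1 and Psmb8. Every probe that carried one of these names in the scanner tables was taken, which gave 12 of 39429 gene probes, 6 in each class, for 10 of 30222 gene names on the array. The tested cells were Zscan5b knockout mouse embryonic stem (ES) cells (3 arrays), set against wild type ES cells (3 arrays). Zscan5b encodes a SCAN domain zinc finger protein. All cultures of both genotypes had 1000 IU/ml leukemia inhibitory factor, a cytokine that keeps ES cells undifferentiated, and stood on mouse embryonic fibroblasts whose division had been stopped with 10 ug/ml mitomycin C. The labels call the replicates biological, but they do not give the site of the deletion, how it was made, the number of clones or the mouse strain and its MHC haplotype.

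MHC class II molecules are pairs of an alpha and a beta chain that display peptides from endosomes to helper T cells, mainly on dendritic cells, macrophages and B cells. Cd74, the invariant chain, fills their groove until they reach the endosome, and Ciita is the coactivator that switches class II genes on. MHC class I molecules pair a heavy chain with beta-2 microglobulin and display peptides from the cytosol, which the proteasome cuts and the Tap1 and Tap2 transporter carries into the endoplasmic reticulum. ES cells are known for low surface class I, and interferon gamma induces both pathways.

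The RNA of each sample, labelled with the dye Cy3, was hybridised to a 1-colour Agilent array of 60-base probes. A relative signal below is a spot's processed intensity as a multiple of its own array's 75th percentile, and a log2 fold change is the knockout mean minus the wild type mean of log2 relative signal, with its standard error (SE) from limma. A probe was called if its limma p, adjusted by Benjamini-Hochberg over the 26649 probes tested, was under 0.05. Probes are compared between arrays only, since the signal of one probe cannot be set against that of another. Each genotype lay on a slide and scan of its own, so genotype and slide cannot be told apart in any value below.

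The ES cell markers Pou5f1, Sox2, Zfp42 and Nanog were well above background on all 6 arrays. Since 64.3% to 70.4% of gene probes per array were, this does not by itself establish the identity in the labels. Pou5f1 was lower in every knockout array than in any wild type array (-0.47 ± 0.10, SE) and Nanog higher (0.66 ± 0.22, SE), and neither was called. The single Zscan5b probe had a relative signal of 0.0450, 0.0278 and 0.0287 in the knockout against 0.0792, 0.0612 and 0.115 in wild type. The knockout arrays lay below all wild type arrays, but the difference (-1.32 ± 0.29, SE) was not called (limma adjusted p 0.107), and without the position of the deletion the probe does not check the genotype. The 75th percentile stood at 852 to 1028 intensity units, and 25371 to 27754 gene probes per array were well above background. Feeder fibroblast markers differed within wild type. Their 37 tested genes summed to a relative signal of 221, 260 and 209 in knockout replicates 1 to 3 against 222, 416 and 337 in wild type replicates 1 to 3, and all 6 defining markers (Col1a1, Col1a2, Col3a1, Pdgfra, Pdgfrb and Thy1) were detected in every sample above background. The log2 fold change was below 0 in 35 of these 37 genes, and its median was -0.82.

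Both probes for H2-Ab1 lay on mm9 chromosome 17, plus strand, at chr17:34406296-34406355 (A_55_P1962747) and chr17:34406305-34406363 (A_55_P2146560). They start 9 bases apart, share 51 aligned bases and differ there by 1 base, T51C, counted from 1 at the 5′ end of the first probe. The shared window around that base is shown because it is why the pair counts as 1 measurement of 1 stretch of transcript, with the differing base in capitals.
A_55_P1962747, bases 31 to 60: agattacaaataaacgagacTcagactctg
A_55_P2146560, bases 22 to 51: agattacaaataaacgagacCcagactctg
Neither probe had a reading frame without a stop codon, as was true of 20.4% of all gene probes. Both held AATAAA, the letters of the common polyadenylation signal, on the probe strand, as did 12.6% of gene probes. No annotation on mm9 was used, so exons and untranslated regions are not assigned. The probe sequences are those of the scanner tables.

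H2-Ab1, which encodes the beta chain of the class II A molecule, was higher in the knockout at both probes. The first had a relative signal of 1.17, 1.30 and 1.40 in knockout replicates 1 to 3, against 0.546, 0.595 and 0.493 in wild type replicates 1 to 3. The second had 1.01, 1.24 and 1.25 in the knockout, against 0.526, 0.539 and 0.447 in wild type. The groups did not overlap at either probe. At both, knockout replicate 1 was the lowest knockout array and wild type replicate 3 the lowest wild type array, more clearly so at the second. At the first probe the mean was 1.29 ± 0.12 in the knockout and 0.545 ± 0.051 in wild type (SD, n = 3 each), a log2 fold change of 1.25 ± 0.12 (SE) or 2.37-fold, and at the second the log2 fold change was 1.21 ± 0.14 (SE). H2-Ab1 was chosen from this contrast, so these values are a description. In bulk RNA more cells that carry a transcript and more transcript per cell cannot be told apart.

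The partner of this chain was not measurable. The probe for H2-Aa, the alpha chain that pairs with the H2-Ab1 product (chr17:34421285-34421344, minus strand), was not well above background on any array. Its relative signal was 0.00281 to 0.00394 in the knockout and 0.00232 to 0.00447 in wild type. The probe was left out of the test, and no fold is given. Whether it captures the transcript of the strain used here was not tested.

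H2-Eb1, the beta chain of the class II E molecule (chr17:34453075-34453134, plus strand), had overlapping groups. Its relative signal was 0.975, 0.961 and 0.844 in the knockout, against 0.762, 1.58 and 1.53 in wild type. The knockout arrays lay between wild type replicate 1 and the other wild type arrays, and the log2 fold change was -0.41 ± 0.29 (SE). Without wild type replicate 1 it was -0.75, and without replicate 2 or replicate 3 it was -0.23 and -0.25. The high wild type arrays were replicates 2 and 3, the same arrays in which the feeder fibroblast markers were high, and the part of the feeder cells in this value was not tested. The E alpha chain, a pseudogene in several mouse strains (H2-Ea-ps), was not well above background on any array.

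Cd74, the invariant chain, had a relative signal of 0.131, 0.173 and 0.143 in the knockout, against 0.167, 0.151 and 0.0959 in wild type. The groups overlapped, with a log2 fold change of 0.14 ± 0.24 (SE), and the direction turned to -0.11 without wild type replicate 3, the lowest array.

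Ciita, the class II coactivator (chr16:10526568-10526627, plus strand), read near the detection limit. Its relative signal was 0.0265, 0.0224 and 0.0195 in the knockout, against 0.0167, 0.0155 and 0.00923 in wild type, and it was well above background on 2 of 3 arrays in each group. The knockout arrays lay above the wild type arrays, and the log2 fold change was 0.76 ± 0.25 (SE). It was 0.06 under normexp background correction, which adds an offset of 50 to every signal, and 0.49 without wild type replicate 3. The probe is largely a simple repeat: it held 8 copies of AAAAC, and no other of the 39429 gene probes held as many. It shared an unbroken run of 26 bases with a Tenm1 probe, 22 with a Cbln2 probe and 20 with a Prg4 probe. Whether it binds other transcripts with such repeats was not tested. What part of the signal at this probe came from Ciita was not tested.

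**Figure D1:**
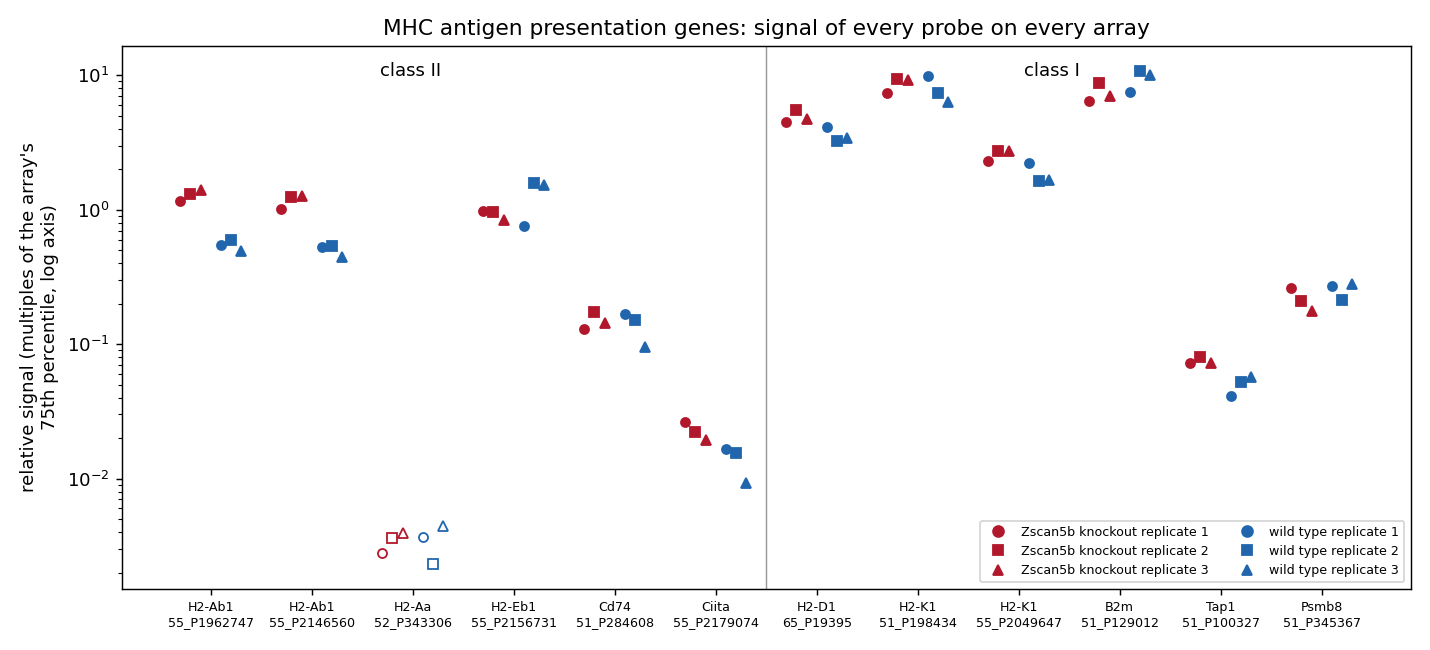
Relative signal (multiples of the array's 75th percentile, log axis) of the 12 member probes on each array, with Zscan5b knockout arrays in red to the left of wild type arrays in blue, a marker shape per replicate and open markers for H2-Aa, which no array read well above background. The H2-Ab1 knockout arrays sit at 1.01 to 1.40 and the wild type arrays at 0.447 to 0.595, whereas H2-Eb1 spans 0.762 to 1.58 in wild type alone.

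H2-D1, a classical class I heavy chain that displays peptides on nearly all nucleated cells (chr17:35403886-35403945, plus strand), had a relative signal of 4.46, 5.46 and 4.69 in the knockout, against 4.13, 3.22 and 3.41 in wild type. Every knockout array exceeded every wild type array. The gap was narrow, with knockout replicate 1 close to wild type replicate 1, and the log2 fold change was 0.44 ± 0.14 (SE).

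The probes for H2-K1, the other classical heavy chain on these arrays, disagreed. The first (A_51_P198434, chr17:34133055-34133114, minus strand, 10 spots per array) had a relative signal of 7.36, 9.32 and 9.18 in the knockout against 9.82, 7.42 and 6.29 in wild type, with a log2 fold change of 0.15 ± 0.19 (SE) and overlapping groups. This value was 0.33 without wild type replicate 1 and 0.0059 without wild type replicate 3. The second (A_55_P2049647, chr17:34133984-34134043, minus strand) had 2.32, 2.74 and 2.74 in the knockout against 2.21, 1.63 and 1.66 in wild type, with 0.52 ± 0.16 (SE) and every knockout array above. At both probes wild type replicate 1 was the highest wild type array.

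The second H2-K1 probe is close to a probe for H2-T23, a nonclassical heavy chain that presents peptides from the leaders of other class I chains. The pair is printed to show how alike the 2 probe sequences are, with capitals for H2-T23 bases that differ from H2-K1 in the aligned stretch.
H2-K1, A_55_P2049647: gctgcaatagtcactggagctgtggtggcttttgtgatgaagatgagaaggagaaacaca
H2-T23, A_51_P237754: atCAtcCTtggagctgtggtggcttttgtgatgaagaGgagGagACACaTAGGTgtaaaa
Aligned over 54 bases, they were identical at 39 and differed at 15, with an unbroken run of 29. The H2-K1 probe also shared 22 bases in a row with a probe named LOC100044874. The H2-T23 probe (chr17:36167338-36167574, minus strand) read 2.26, 2.74 and 2.45 in the knockout against 2.07, 1.80 and 1.77 in wild type, so every knockout array lay above every wild type array, as at the second H2-K1 probe and unlike the first. How much of either signal came from the other transcript was not tested. The first H2-K1 probe shared no run of 20 bases with any other gene probe.

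B2m, the light chain common to class I molecules (chr2:121978401-121978460, plus strand), had a negative value. Its relative signal was 6.47, 8.69 and 7.04 in the knockout against 7.50, 10.8 and 10.1 in wild type. The groups overlapped, with a log2 fold change of -0.35 ± 0.19 (SE), and wild type replicates 2 and 3 were again the high arrays, as for H2-Eb1 and the feeder markers. The part of the feeder cells here was not tested.

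Tap1, a subunit of the peptide transporter (chr17:34330854-34330913, plus strand, 10 spots per array, of which 7 were used on wild type replicate 1), had a relative signal of 0.0723, 0.0800 and 0.0724 in the knockout against 0.0412, 0.0525 and 0.0573 in wild type. Every knockout array stood above every wild type array. The log2 fold change was 0.59 ± 0.15 (SE) or 1.50-fold, and 0.24 under normexp. Psmb8, an immunoproteasome subunit whose gene lies beside Tap1 (chr17:34337771-34337830, plus strand), had 0.261, 0.208 and 0.178 in the knockout against 0.270, 0.212 and 0.280 in wild type, with overlapping groups and -0.24 ± 0.19 (SE). Psmb8 ran from -0.39 without knockout replicate 1 to -0.11 without knockout replicate 3. Between Tap1 and H2-Eb1 on mm9 chromosome 17, the member probes ran Tap1, Psmb8, H2-Ab1, H2-Aa and H2-Eb1, with log2 fold changes of 0.59, -0.24, 1.25, no value and -0.41.

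**Figure D2:**
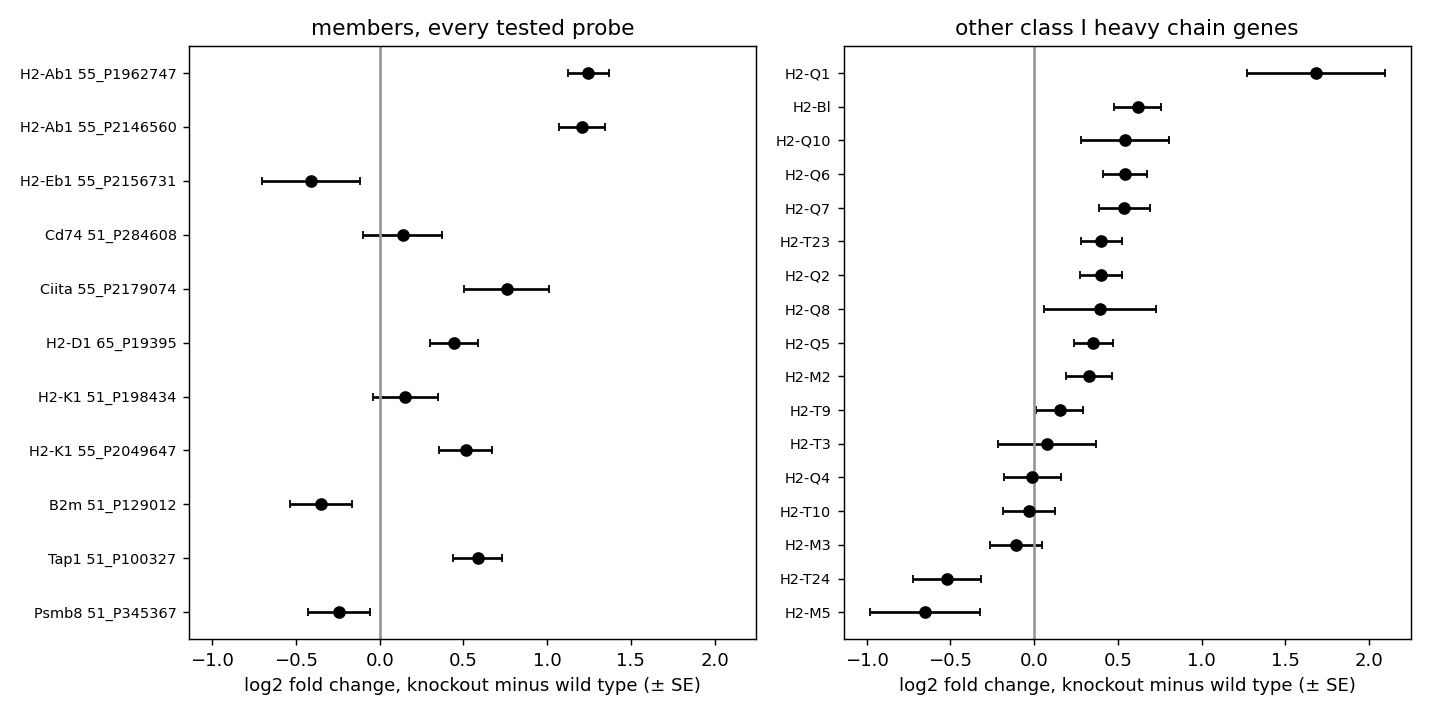
Log2 fold change, knockout minus wild type, with bars of 1 SE (3 arrays per group), for the 11 tested member probes (left) and for the 17 other class I heavy chain genes by representative probe (right). H2-Ab1 stands at 1.25 and 1.21 and the remaining member probes between -0.41 and 0.76, while H2-Q1 has the highest value on the right, 1.68 with an SE of 0.41.

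Of the 12 member probes, 11 were tested, and 2 of these 11 were called, both from H2-Ab1, where 0.465% of all tested probes were called (0.124% higher and 0.341% lower in the knockout). In class II, 5 of 6 probes were tested, and the log2 fold change was above 0 in 4 and below 0 in 1. Its median, 0.76, was the value of Ciita, which read near the detection limit. In class I, all 6 were tested, 4 were positive and 2 negative, and the median was 0.30, while the median over all tested probes was -0.01. The groups did not overlap at 6 of the 11, each time with the knockout above, and at none did the knockout lie below as a whole, where 13.6% of all tested probes had the knockout above and 15.4% below. Both H2-Ab1 probes are in the counts over the 11 probes and over class II, though the pair counts as 1 measurement. The members were chosen with this contrast known, so nothing is read from these shares.

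The other genes of the class II pathway gave no call. Of 21 genes listed, 17 were tested by representative probe, which is its brightest tested probe over the arrays. The log2 fold change was positive in 12 and negative in 5, with a median of 0.10, and none was called by limma (smallest adjusted p 0.176), while 4 higher and 1 lower gene had an unadjusted p under 0.05. Over all tested probes, 21.9% had an unadjusted p under 0.05 (10.6% higher and 11.3% lower in the knockout). Every knockout array lay above every wild type array in 4 of the 17 (H2-Oa, H2-DMa, Rfxap and Nfyb) and below in 1 (Ctsl). Over all tested probes these shares were 13.6% and 15.4%. H2-Oa, a chain of the DO molecule that restrains peptide exchange, had a relative signal of 0.155, 0.209 and 0.203 in the knockout against 0.116, 0.141 and 0.0704 in wild type (0.84 ± 0.28, SE, limma adjusted p 0.176). H2-DMa, a chain of the DM molecule that exchanges the invariant chain peptide for others, had 0.207, 0.232 and 0.241 against 0.145, 0.192 and 0.0990 in wild type (0.69 ± 0.24, SE, limma adjusted p 0.191). In both genes the knockout arrays lay above the wild type arrays, and wild type replicate 3 was the lowest. Without that array the log2 fold change was 0.55 for H2-Oa and 0.44 for H2-DMa.

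Ifi30, a thiol reductase that opens disulfide bonds of endocytosed antigens, had a relative signal of 3.86, 4.47 and 4.79 in the knockout against 2.34, 4.08 and 2.30 in wild type. Its groups overlapped through wild type replicate 2, with 0.64 ± 0.25 (SE, limma adjusted p 0.211). Rfxap, a subunit of the RFX complex that binds class II promoters with Ciita, had 0.0658, 0.0674 and 0.0749 in the knockout against 0.0476, 0.0619 and 0.0368 in wild type (0.54 ± 0.20, SE, limma adjusted p 0.201). Without wild type replicate 2, H2-DMa (0.92), Rfxap (0.73) and Ifi30 (0.91) passed, with limma adjusted p of 0.0476, 0.0464 and 0.0327. Rfxap read 0.21 under normexp and 0.35 without wild type replicate 3. Rfx5, the DNA-binding subunit of that complex, was well above background on 1 knockout array and no wild type array at 1 probe and on no array at the other.

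Class I genes other than the members were likewise not called. Of 32 listed, 30 were tested, 17 positive and 13 negative, with a median of 0.07 and a smallest limma adjusted p of 0.106, and an unadjusted p under 0.05 was found for 7 higher and 4 lower genes, beside the 21.9% of all tested probes. The 17 heavy chains among them had 12 positive and 5 negative values and a median of 0.35. That median ran from 0.27 without wild type replicate 2 to 0.45 without wild type replicate 1. For processing and loading, 12 genes were tested, with the coactivator Nlrc5 (-0.68) counted in. These 12 had 5 positive and 7 negative values and a median of -0.07. The heavy chains are close relatives in sequence, so their probes are not separate measurements, and the split was made after the values were seen.

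Among heavy chains, H2-Q1 had a relative signal of 0.0599, 0.0860 and 0.0898 in the knockout against 0.0193, 0.0457 and 0.0159 in wild type, with a log2 fold change of 1.68 ± 0.41 (SE, limma adjusted p 0.120). H2-Q6 had 1.63, 1.97 and 1.64 in the knockout against 1.32, 1.07 and 1.21 in wild type (0.54 ± 0.13, SE, limma adjusted p 0.119), and H2-Bl had 0.459, 0.463 and 0.437 against 0.344, 0.248 and 0.301 in wild type (0.62 ± 0.14, SE, limma adjusted p 0.110). In all 3 the knockout arrays lay above the wild type arrays. H2-Q1 was dim, with intensities of 16.4, 39.0 and 14.9 units in wild type. Of the 17 heavy chains, 7 had every knockout array above and 1 every one below, beside 13.6% and 15.4% of all tested probes. The 1 below was H2-T24 (-0.52 ± 0.20, SE), also dim at 19.9 to 37.3 units. H2-M5 had -0.65 ± 0.33 (SE) with overlapping groups. H2-M3, H2-T10 and H2-Q4 had -0.11, -0.03 and -0.01, also with overlapping groups. H2-Q1 read 0.69 under normexp, and it passed with array weights (2.01, limma adjusted p 0.0345) and without wild type replicate 2 (2.14, limma adjusted p 0.0302). H2-Bl passed with array weights (0.57, limma adjusted p 0.0459). Nlrc5, the coactivator that does for class I what Ciita does for class II, ran the other way at 0.0264, 0.0270 and 0.0234 in the knockout against 0.0489, 0.0396 and 0.0353 in wild type. Its log2 fold change was -0.68 ± 0.15 (SE, limma adjusted p 0.106), and -0.24 under normexp. Its other probe, well above background on 1 knockout array and 2 wild type arrays, had -0.39 and overlapping groups.

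The arrays within wild type ordered these genes in opposite ways. Wild type replicate 1 was the highest wild type array in 11 of the 17 heavy chains (64.7%), against 33.9% of 26594 probes measured on all arrays, and the lowest in 34 of 37 feeder markers (91.9%, against 27.5%). The mean of the heavy chains, each centred on its 6 arrays, was 0.09, 0.20 and 0.13 in the knockout against 0.01, -0.19 and -0.24 in wild type on the log2 scale. For the feeder markers it was -0.59, -0.21 and -0.53 in the knockout against -0.65, 1.095 and 0.89 in wild type. H2-Ab1 did not show this split, since its 3 wild type arrays stood at -0.61, -0.49 and -0.76. The same mean over the 17 tested interferon gamma signalling genes was 0.22, 0.11 and -0.01 in the knockout. In wild type it was 0.27, -0.48 and -0.10, highest in replicate 1 as for the heavy chains. The part of the feeder cells or of interferon signalling in the heavy chain values was not tested.

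**Figure D3:**
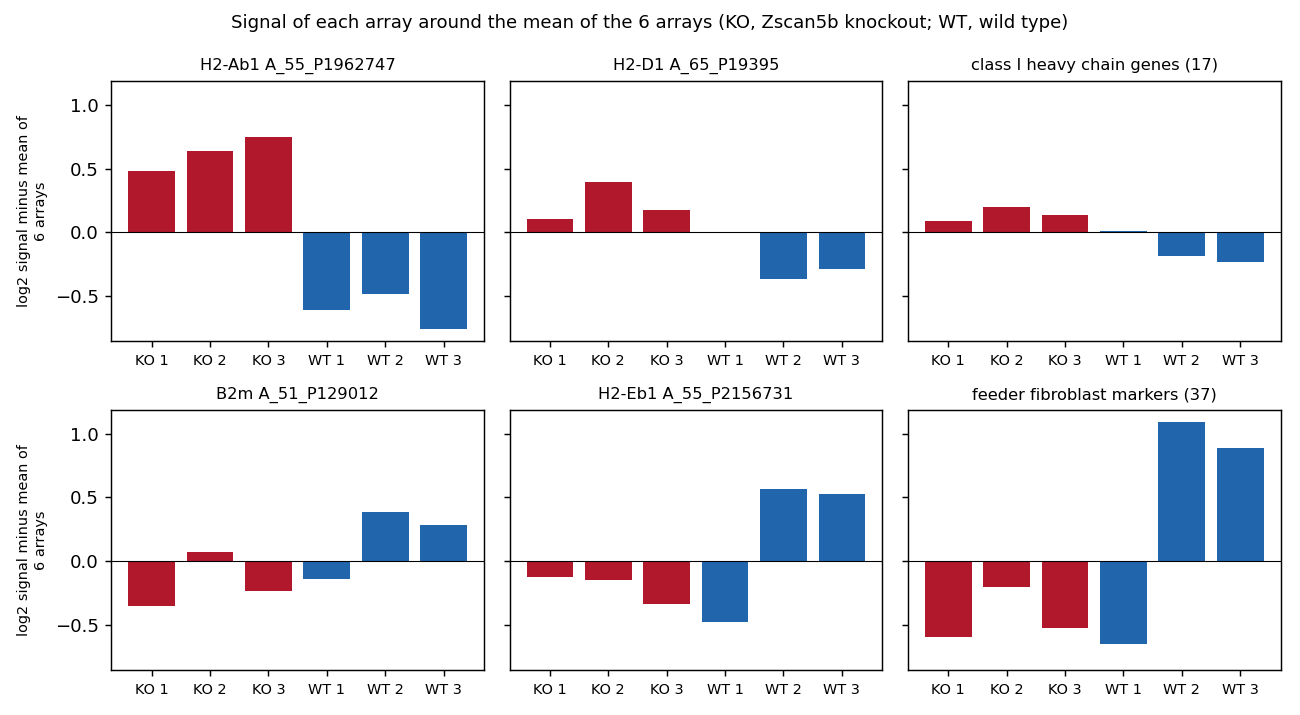
Log2 signal of each array minus the mean of the 6 arrays, knockout (KO, red) left of wild type (WT, blue), for H2-Ab1, H2-D1, B2m and H2-Eb1 and as the mean over 17 class I heavy chains and 37 feeder fibroblast markers. Feeder markers, H2-Eb1 and B2m are high in wild type replicates 2 and 3, where the heavy chain mean is low (-0.19 and -0.24), and H2-Ab1 is near the same level in all 3 wild type arrays.

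Cells that normally carry class II were looked for by their markers. Of 21 listed genes of antigen presenting and other blood cells, 16 were tested, 11 positive and 5 negative, and none was called. An unadjusted p under 0.05 was found for 2 higher and 0 lower of them, beside 21.9% of all tested probes. Their summed relative signal was 10.32 to 11.3 in the knockout and 9.56 to 10.6 in wild type. Itgax, the dendritic cell integrin CD11c, was not well above background on any array. Ptprc, the leukocyte antigen CD45, Csf1r and Adgre1, markers of macrophages, were well above background on all 6. Ptprc had a relative signal of 0.104, 0.0272 and 0.0206 in the knockout against 0.0222, 0.0165 and 0.0241 in wild type, high in knockout replicate 1 alone, and the groups overlapped (0.91 ± 0.60, SE, limma adjusted p 0.392). Adgre1 had 0.146, 0.143 and 0.0903 in the knockout against 0.132, 0.112 and 0.114 in wild type, and Csf1r had 1.50, 1.30 and 1.42 in the knockout against 1.38, 1.20 and 1.28 in wild type, both with overlapping groups. The part of such cells in the H2-Ab1 signal was not tested.

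Interferon gamma signalling genes did not show a call either. Ifng itself was not well above background on any array. Of 18 listed genes 17 were tested, 13 positive and 4 negative, with a median of 0.16. Leaving out wild type replicate 1 gave a median of 0.44. It was 0.28 without knockout replicate 3, 0.08 without wild type replicate 2 (10 positive) and 0.05 under normexp (10 positive). The wild type arrays differed in these genes, whose centred mean was 0.27, -0.48 and -0.10 in wild type replicates 1 to 3. The widest spread within wild type was at Irgm1 (5.56, 0.143 and 0.892), which read 1.91, 0.896 and 0.554 in the knockout. The lack of calls therefore does not show an even state of this pathway. The unadjusted p was under 0.05 in 1 higher and 0 lower genes, beside 21.9% of all tested probes. Irf8, a transcription factor of the myeloid lineage that interferon gamma induces, had a relative signal of 0.269, 0.432 and 0.519 in the knockout against 0.174, 0.298 and 0.127 in wild type. Its groups overlapped, with 1.07 ± 0.38 (SE, limma adjusted p 0.191). Irf1, an early target, had 6.21, 5.91 and 5.55 against 5.60, 3.97 and 4.76 in wild type (0.32 ± 0.15, SE, limma adjusted p 0.268). Cxcl10, a chemokine target, had 0.189, 0.201 and 0.186 against 0.175, 0.0770 and 0.176 in wild type (0.52 ± 0.33, SE, limma adjusted p 0.376). Without wild type replicate 2, the lowest array for both, the log2 fold change was 0.13 for Cxcl10 and 0.19 for Irf1.

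Some genes outside the pathway followed the H2-Ab1 pattern more closely than any member other than its own second probe. By Pearson correlation with the first H2-Ab1 probe over the 6 arrays, among 13974 genes well above background on all arrays, the closest were Pcif1 (r = 0.997), which methylates capped transcripts, Tfrc (0.997), the transferrin receptor, Pafah1b3 (0.997), Nrm (0.994), a nuclear membrane protein, and Cdkn1b (0.993), the cell cycle inhibitor p27. Tfrc, for instance, had a relative signal of 8.41, 9.52 and 10.5 in the knockout against 4.80, 4.80 and 4.26 in wild type. These values describe 6 arrays on which slide and genotype coincide, and 193 genes had r above 0.95. The genes named were picked by r from 13974, so a higher r than in the few members follows from the selection. Nothing about the pathway is read from it. The members were not held to the filter of all 6 arrays. Among the members r was 0.86 for Tap1 and for the second H2-K1 probe, 0.84 for H2-D1, 0.80 for Ciita, 0.42 for the first H2-K1 probe and 0.35 for Cd74. It was below 0 for H2-Eb1 (-0.51), B2m (-0.61) and Psmb8 (-0.65).

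The direction of every tested member probe other than Cd74 was the same under all alternatives run, and the size of H2-Ab1 varied little, while its call did not hold throughout. The log2 fold change at the first probe lay between 1.17 and 1.32 over 15 alternatives, and it passed in 6 of them. These were the shift to the median, quantile normalization, array weights, the authors' table, and the fits without wild type replicate 1 or without wild type replicate 2. It did not pass under any of the others, which include leaving out any 1 knockout replicate or wild type replicate 3. H2-Eb1 lay between -0.75 and -0.23, and Tap1 between 0.24 and 0.68.

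**Figure D4:**
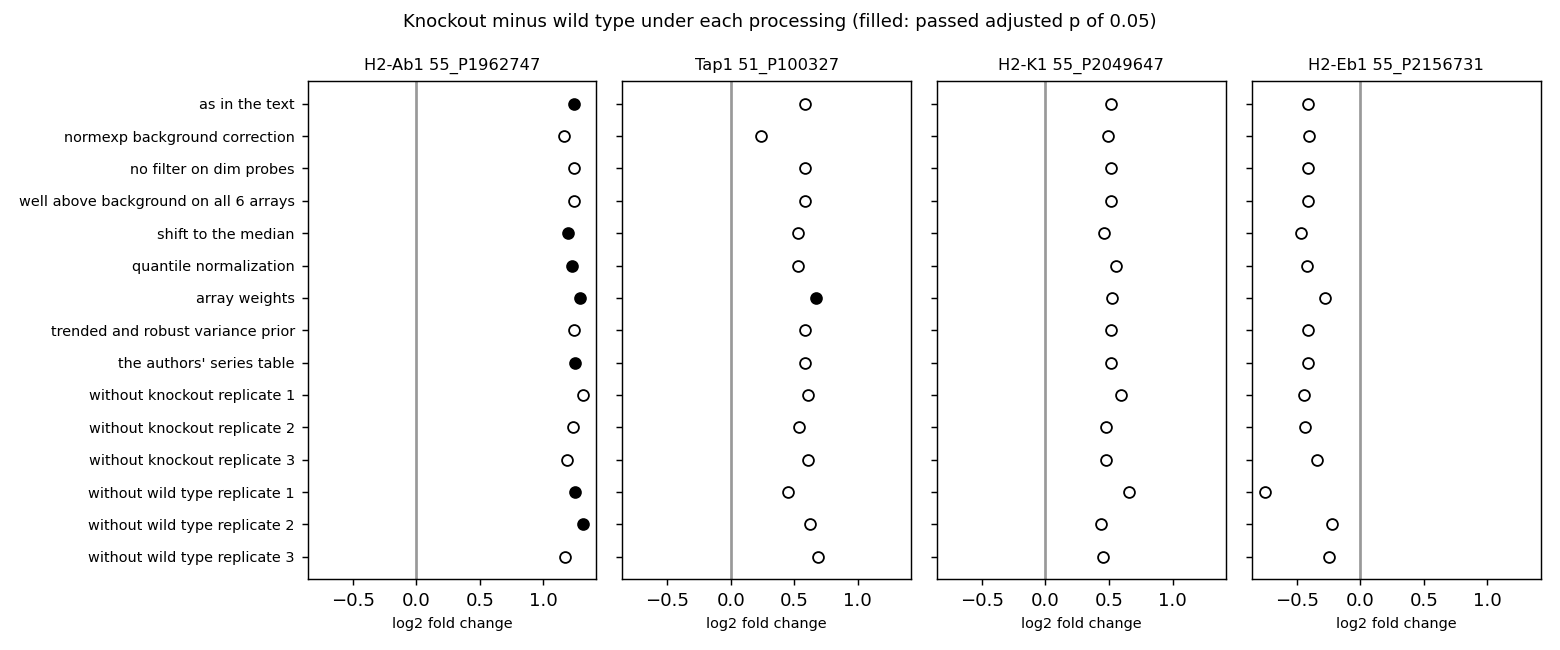
Log2 fold change, knockout minus wild type, of H2-Ab1, Tap1, the second H2-K1 probe and H2-Eb1 as reported (top) and under the alternatives without a block, filled where the adjusted p was under 0.05. H2-Ab1 stays between 1.17 and 1.32, Tap1 drops to 0.24 under normexp, and H2-Eb1 stays below 0, from -0.75 to -0.23.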

How the data were processed

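The deposited scanner tables hold a processed intensity per spot. Per the file headers they were made with Feature Extraction 10.7.3.1, whereas version 10.3.1.1 is given in the submitters' processing notes. The authors' deposited table of the whole series holds log2 values centred on each probe and was used as an alternative. Here, spots of controls and spots flagged as outliers were dropped, the processed intensity was put on the log2 scale, spots of the same probe were averaged, and the 75th percentile of the array was taken off. Probes detected well above background on 3 or more of the 6 arrays were tested, 26649 of 39429 gene probes, and none was saturated. Groups were set by sample title. The fit used limma 3.58.1 (lmFit, eBayes, two-sided) with R 4.3.3, Benjamini-Hochberg adjustment and a threshold of 0.05, and it called 33 probes higher and 91 lower in the knockout. It was tested on simulated data. The number of arrays limits the precision. Positions are on mm9, as in the scanner tables, and a RefSeq table on GRCm38.p6 gave current gene names only. Members, gene lists and the rule for named genes (all member probes, up to 4 list genes with the smallest p where none was called, the 5 genes most correlated with H2-Ab1, defining markers and Zscan5b) were chosen with earlier results of these data known. Of the genes this rule takes, some are not reported here. The alternatives were normexp background correction, other detection filters, other normalizations, array weights, another variance prior, the authors' table, the replicate number as a block, averaging a gene's probes and leaving out each array.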

Additional observations from a re-analysis of the deposited data

How the results depend on the processing

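Against 33 higher and 91 lower probes and 2 member probes called, 0 higher, 0 lower and 0 members were called under normexp, without a detection filter, with detection on all 6 arrays and with a trended and robust prior. The shift to the median called 54 higher and 177 lower, quantile normalization 50 higher and 131 lower, and array weights 807 higher and 778 lower, with 2 class I pathway genes (H2-Q1 and H2-Bl) against 0. Same-numbered arrays did not deviate together throughout (r of 0.162, 0.232 and -0.144), and with the replicate number as a block 0 higher, 0 lower and 0 members were called. Leaving out 1 array gave 0 to 1409 higher and 0 to 1148 lower probes, 0 to 2 members, 0 to 3 class II and 0 to 2 class I pathway genes. It was 0 for both directions and the members without any knockout replicate or wild type replicate 3, 203 and 437 without wild type replicate 1, and 1409 and 1148 without wild type replicate 2. The limma adjusted p of H2-Ab1 ranged from 0.0234 to 0.200 over the alternatives, and Tap1 passed only with array weights. Averaged over the probes of a gene, the log2 fold change was 1.23 for H2-Ab1 and 0.33 for H2-K1. The block changed no other call. The causes were not tested. Ciita and H2-Aa are limited by signal near background.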
